A study of Gallus gallus and Dromaius novaehollandiae with 40 samples.

Results

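The splanchnopleure is the inner layer into which the lateral plate of the early embryo splits, and the values below describe how its change from the unsplit lateral plate mesoderm differed between embryos of the chick, Gallus gallus, and of the emu, Dromaius novaehollandiae. The members are 11 of the 40 libraries that the labels of the series describe. They are the bulk RNA libraries labelled as lateral plate mesoderm or splanchnopleure from the level of the forelimb. The chick has 3 lateral plate libraries at Hamburger and Hamilton (HH) stage 10 (numbers 30, 31 and 32) and 3 splanchnopleure libraries at HH13 (50, 61 and 64). The emu has 3 lateral plate libraries (1, 23 and 8) and 2 splanchnopleure libraries at HH13 (6 and a library called pool). Emu lateral plate 23 and 8 are labelled HH10, but emu lateral plate 1 is labelled HH13. For the comparison of both layers, 3 chick somatopleure libraries at HH13 (15, 60 and 63) and 3 emu ones were used, of which 53 and 5 are labelled HH13 and 13 is labelled HH10. The labels give no genetic change or treatment for any of these embryos, and they state neither the embryos behind a library nor what was pooled. A p-value here thus covers only how these libraries spread, part of which could be technical. The lateral plate was younger than the splanchnopleure in every chick library, so tissue and stage cannot be told apart there. By their labels emu lateral plate 23 and 8 were also younger than the emu splanchnopleure, and emu lateral plate 1 was not. Tissue and stage are thus largely mixed in the emu too. The labelled stages of the lateral plate also differ between the species, so a part of stage in the species difference cannot be told apart. The question the design poses is which genes changed differently in the splanchnopleure of a bird with a reduced wing and of a bird without one. With 1 species of each kind, wing form cannot be told apart from any other difference between chick and emu.

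The lateral plate splits into the outer somatopleure, from which limb buds and body wall form, and the inner splanchnopleure, which lies against the gut endoderm. Splanchnic mesoderm goes on to form heart muscle, the smooth muscle and connective tissue of the gut, and the first vessels. It is patterned by Hedgehog from the endoderm, by BMP, and by retinoic acid, and transcription factors of the GATA, HAND and FOXF families are known to mark it.

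Genes were joined by symbol, and 9736 of the 12338 shared genes had enough counts in both species to be tested. The species difference of a gene is the log2 fold change from lateral plate to splanchnopleure in the chick, less the same fold change in the emu. A positive value means that the change was higher in the chick. A gene is called, and is said to have risen or fallen, where its adjusted p was under 0.05 in edgeR's quasi-likelihood test. Levels are given as CPM, which are counts scaled to a common library size within each species, and levels of chick and emu are not compared, since gene length and annotation may differ. Total counts ran from 5061393 to 8601471 over the 11 libraries, and the lowest chi-square per degree of freedom between replicates was 3.95, so no pair looked like a repeat of the same library. Of 25 listed splanchnic mesoderm regulators 14 were among the shared genes and 11 were tested. FOXF1, FOXF2 and HAND2 were not among the shared genes. The list was chosen with earlier results of these data known, so it is no independent check of the tissue label. In the chick 6 of the 11 rose and none fell, where 8.38% and 6.07% of all genes rose and fell. In the emu 8 rose and 1, ISL1, fell, where 15.9% and 12.7% of all genes did. The 2 emu splanchnopleure libraries stood apart from each other, at 65.9 and 48.1 on the first principal component of the emu early libraries, for library 6 and the pool. Emu lateral plate 1 lay at -35.7 and the other two lateral plate libraries at -16.7 and -14.3.

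The change from lateral plate to splanchnopleure differed between the species in 924 of 9736 genes, which is 9.49% of those tested. In 420 genes (4.31%) the change was higher in the chick, and in 504 (5.18%) it was lower. With upper quartile factors the larger group turned, at 489 higher and 450 lower. Taken alone, the chick changed in 1407 genes (14.5%), of which 816 rose and 591 fell. The emu changed in 2779 (28.5%), of which 1544 rose and 1235 fell. Of the genes called in both species 585 moved the same way and 62 moved in opposite directions. Among the 585, the median absolute change was 0.895 in the chick and 0.998 in the emu on the log2 scale.

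Most of the 924 species differences were changes called in the emu: 608 were called in the emu and not in the chick, 178 in the chick and not in the emu, and 37 in neither. Among all genes tested the emu led likewise, with 2132 called in the emu only, 760 in the chick only and 6197 in neither. With limma voom and a variance per species, 1721 genes were called in the chick and 2470 in the emu. The lead of the emu rests on emu splanchnopleure 6. Without that library, which leaves the pool alone in its group, more genes were called in the chick than in the emu. The absolute change was larger in the emu for 76.1% of the 924 genes, against 60.8% of all genes tested. The median absolute species difference of the called genes was 1.15 on the log2 scale, and 544 of them differed by at least 1. Across all genes tested the median change was 0.02 in each species. These counts changed most with emu splanchnopleure 6: without that library 238 genes were called in the species difference and 1130 in the emu alone, and 227 of the 924 were among those still called. Without emu lateral plate 1 the species difference was called in 554 genes, and without chick lateral plate 30 in 586. A core of 197 genes, 82 higher and 115 lower in the chick, was called in each of the 11 fits that left out 1 of these libraries. The genes described next are taken by rule, and for those outside this core the text says without which library, or without how many, the call was lost.

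**Figure D1:**
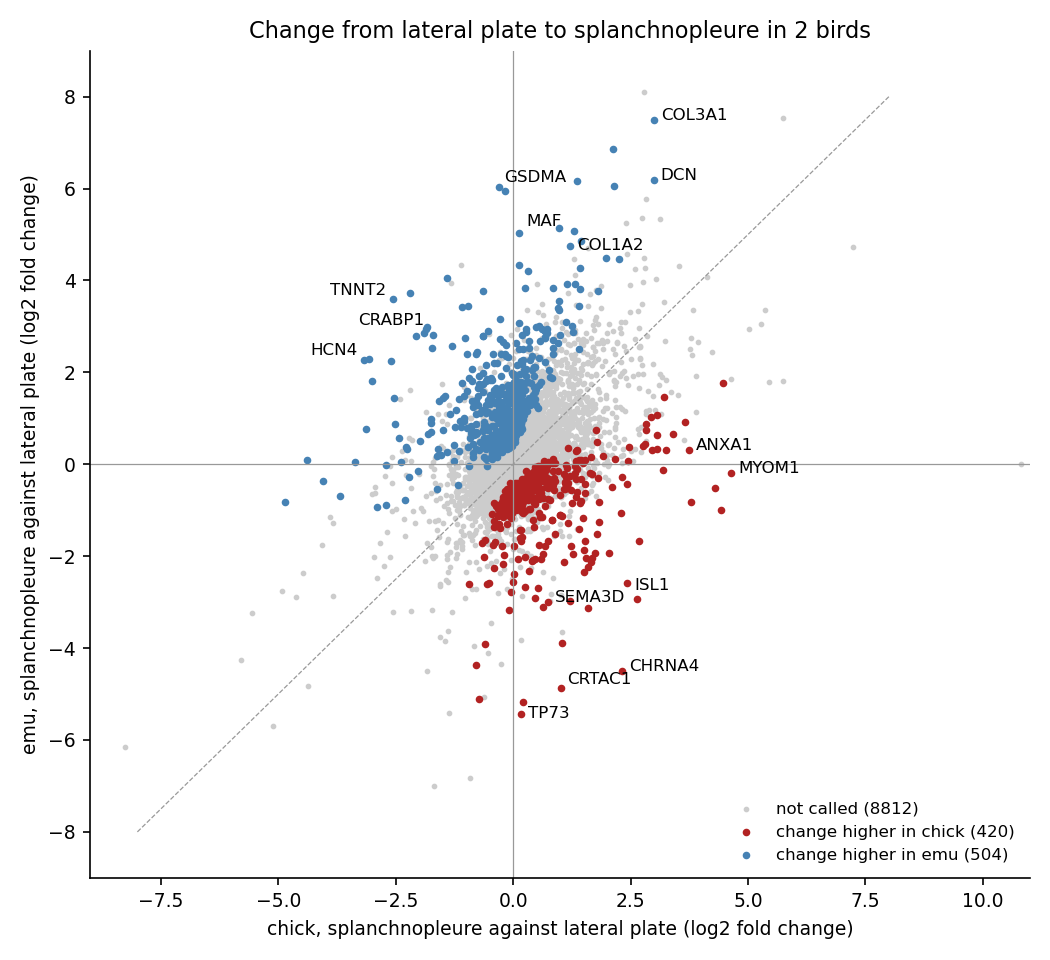
Log2 fold change from lateral plate to splanchnopleure in the chick (horizontal axis) and in the emu (vertical axis), with 1 point per tested gene (9736). Coloured points are the 420 genes whose change was higher in the chick and the 504 whose change was lower, and they lie away from the dashed diagonal on which both changes are equal; some of the genes named in the text are labelled.

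Limits on symbol, level, counts and overlap were set for the genes named by size. Other large called values lay outside these limits, such as GRIN2A (-5.46) and C2H10orf112 (5.41). Genes called in opposite directions under a separate rule are described beside those named by size. The 12 largest positive and 12 largest negative called species differences within the limits fell into several kinds of gene. In the first kind the direction was opposite. ISL1, a LIM homeodomain factor of second heart field and splanchnic mesoderm progenitors, rose in the chick splanchnopleure and fell in the emu. It measured 0.366, 1.47 and 0.999 CPM in chick lateral plate 30, 31 and 32 and 6.19, 4.75 and 4.18 CPM in chick splanchnopleure 50, 61 and 64. In the emu it measured 6.53, 3.85 and 8.88 CPM in lateral plate 1, 23 and 8 and 1.06 and 1.06 CPM in splanchnopleure 6 and the pool. The groups did not overlap in either species, and the direction was opposite. The chick change was 2.43 (SE 0.55), the emu change -2.58 (SE 0.61) and the species difference 5.01 (SE 0.83, adjusted p = 0.00278). All values of ISL1 were low, with 18 and 107 counts over the chick groups and 160 and 16 over the emu groups.

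CHRNA4, a subunit of neuronal nicotinic acetylcholine receptors, had the largest species difference of the genes named, 6.83 (SE 1.25, adjusted p = 0.00507). Its chick levels were 1.10, 1.17 and 3.99 CPM in the lateral plate, in the library order given for ISL1, and 4.83, 19 and 6.21 CPM in the splanchnopleure. Its emu levels were 19.8, 2.98 and 5.18 CPM and 0.397 and 0.396 CPM. Chick splanchnopleure 61 and emu lateral plate 1 were the high libraries of their groups, and the difference was 5.98 without the first and 5.64 without the second, called in both cases. ALK, a receptor tyrosine kinase of the developing nervous system, rose by 1.75 in the chick, from 0.855, 0.733 and 0.799 CPM to 1.51, 3.68 and 2.98 CPM. It fell in the emu, from 21.2, 18.9 and 16.5 CPM to 4.89 and 5.02 CPM, a change of -1.93. PPP1R14C, an inhibitor of protein phosphatase, did likewise, with a species difference of 3.59, and measured 0.794 and 0.396 CPM in emu splanchnopleure.

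COL22A1, a collagen of tissue junctions, was called in opposite directions too. It rose in the chick from 24.2, 29.8 and 27.4 CPM to 65.3, 83.1 and 84.5 CPM, and fell in the emu from 9.86, 15.1 and 10.5 CPM to 4.10 and 2.38 CPM. No library of one tissue overlapped with the other in either species. Its species difference was 3.38 (SE 0.62, adjusted p = 0.00507).

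The reverse, a fall in the chick and a rise in the emu, was called in 37 of the 924 genes. TNNT2, which encodes cardiac troponin T, stood at 2.93, 4.11 and 2.20 CPM in chick lateral plate and 0.755, 0.460 and 0.358 CPM in chick splanchnopleure. The emu libraries had 0.229, 3.23 and 1.85 CPM and 20.5 and 22.2 CPM, so both emu splanchnopleure libraries lay above every emu lateral plate library. This gave TNNT2 a species difference of -6.15 (SE 1.07, adjusted p = 0.00426). HCN4, the pacemaker channel of the early heart, went from 1.83, 2.35 and 2.40 CPM to 0, 0.153 and 0.477 CPM in the chick and from 0.344, 1.86 and 1.23 CPM to 4.50 and 6.60 CPM in the emu. Its species difference was -5.44 (SE 1.02, adjusted p = 0.00569), and it rests on 5 counts in the 3 chick splanchnopleure libraries together.

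SLC28A3, a nucleoside transporter, fell by 2.60 in the chick and rose by 2.26 in the emu, where both splanchnopleure libraries (18.9 and 26.1 CPM) lay above the lateral plate (3.21, 7.82 and 3.08 CPM). C3H20orf103 carries a symbol made from its position in these data, and its function is not described here. Its species difference was -4.87 (SE 0.96, adjusted p = 0.00738). SLCO2B1, an organic anion transporter, had 70.8 and 11.6 CPM in emu splanchnopleure 6 and the pool against 5.27, 12.4 and 7.64 CPM in emu lateral plate, so the pool overlapped with the lateral plate. Its species difference of -5.37 became -3.53 without emu splanchnopleure 6 (adjusted p = 0.104).

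CRABP1, which binds retinoic acid in the cytoplasm, fell in the chick and rose in the emu. Chick levels were 12.9, 6.01 and 5.19 CPM in the lateral plate and 1.36, 3.83 and 1.79 CPM in the splanchnopleure. Emu levels were 19.4, 46.4 and 38.5 CPM and 177 and 355 CPM. The groups did not overlap in either species, and the species difference was -4.79 (SE 0.63, adjusted p = 9.74e-04).

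**Figure D2:**
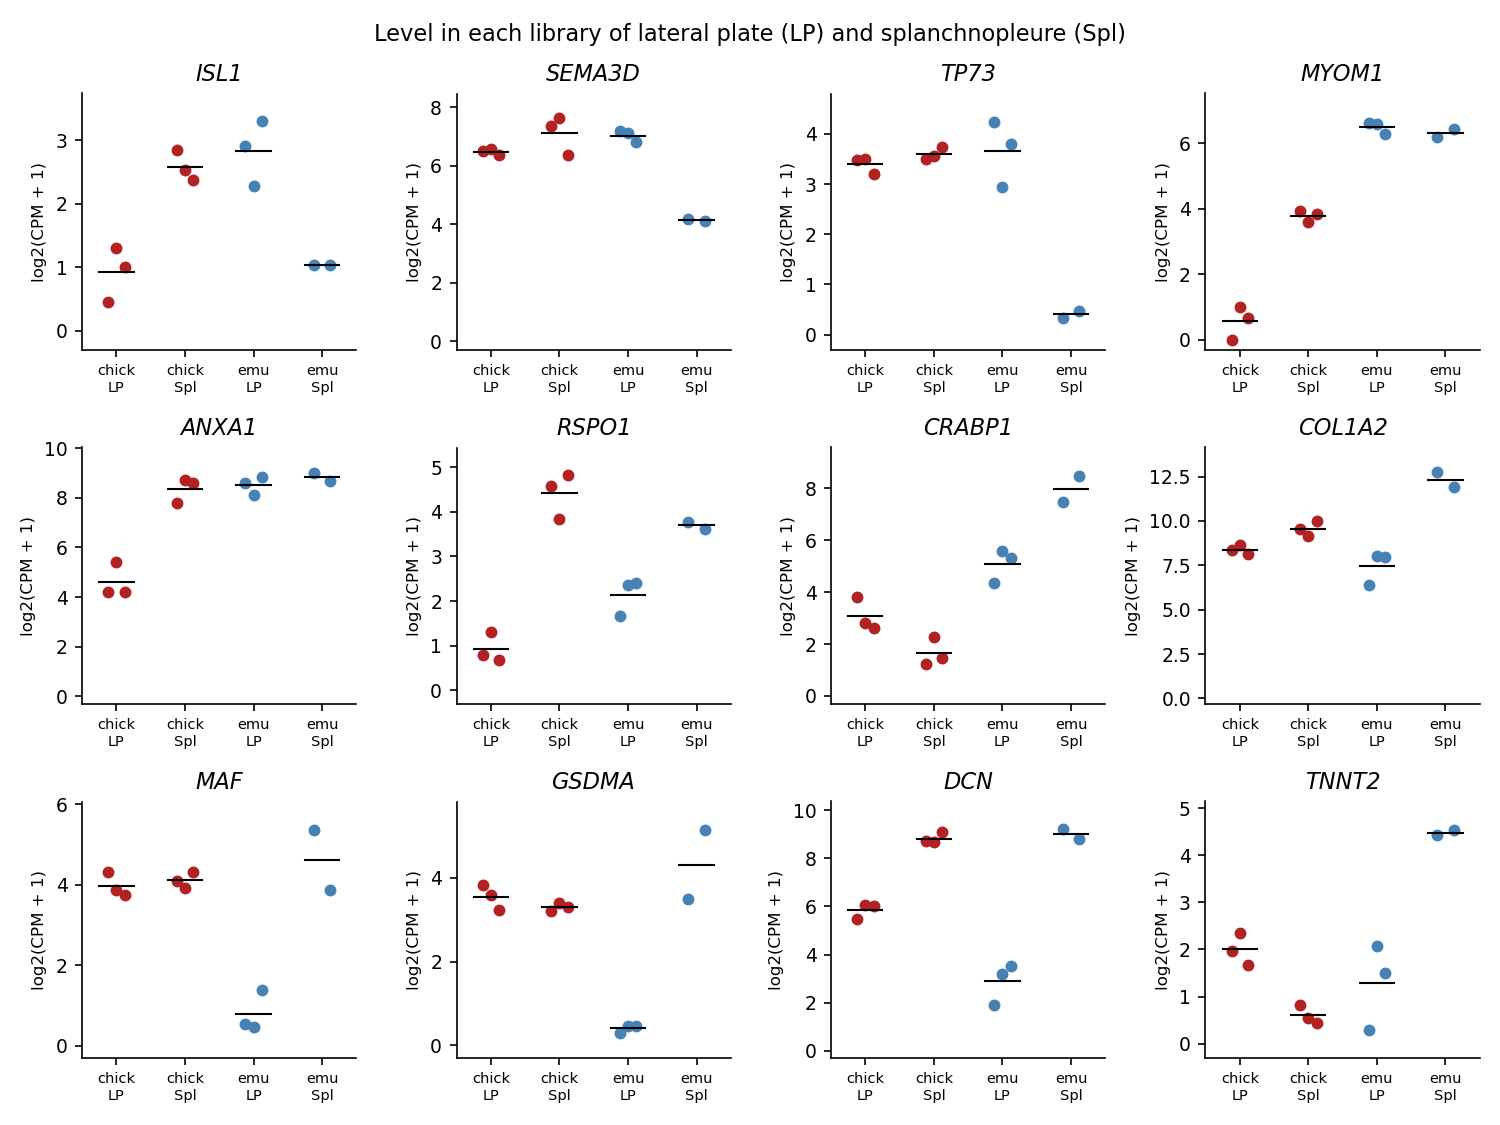
Level of 12 genes in each of the 11 libraries, as log2(CPM + 1), by species and tissue (LP, lateral plate; Spl, splanchnopleure), with bars at the group means. ISL1 is higher in the chick splanchnopleure and lower in the emu splanchnopleure than in the lateral plate of the same species, and TNNT2 and CRABP1 show the reverse.

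A second kind of gene changed in the chick and was not called in the emu. MYOM1, which encodes the M-line protein myomesin 1, rose from 0, 1.03 and 0.599 CPM to 14.3, 11.2 and 13.2 CPM in the chick, a change of 4.64 (SE 0.40). In the emu it measured 96.7, 94.8 and 77.2 CPM in the lateral plate and 71.5 and 85.9 CPM in the splanchnopleure, a change of -0.19 that was not called. MYOM1 thus had a species difference of 4.82 (SE 0.49, adjusted p = 2.13e-04). ANXA1, a phospholipid-binding protein, rose from 17.6, 41.4 and 17.4 CPM to 222, 419 and 386 CPM in the chick, and its emu libraries overlapped (384, 275 and 456 CPM against 517 and 408 CPM). Its species difference was 3.43 (SE 0.51, adjusted p = 0.00169). CHRM2, a muscarinic acetylcholine receptor, and NGEF, a guanine nucleotide exchange factor, rose in the chick by 2.69 and 2.04. Their emu changes of -1.66 and -1.94 were not called. Both species differences (4.35 and 3.98) passed with all libraries but not without emu splanchnopleure 6 (adjusted p = 0.0930 and 0.0807).

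Other genes changed in the emu. Of the genes higher in the chick, CRTAC1, TP73, NEFM and EYA4 fell in the emu and were not called in the chick, and SEMA3D fell in the emu while it rose in the chick. TP73, a transcription factor of the p53 family, had 10.1, 10.3 and 8.19 CPM and 10.3, 10.7 and 12.3 CPM in the chick tissues, which lay close together. In the emu it went from 17.9, 6.70 and 12.9 CPM to 0.265 and 0.396 CPM, a change of -5.18 (SE 0.52), with 5 counts over both splanchnopleure libraries. CRTAC1, a secreted matrix protein of cartilage, fell by 4.88 in the emu, from 17.5, 21.8 and 8.63 CPM to 0.794 and 0.264 CPM. SEMA3D, a secreted guidance protein, went from 143, 140 and 110 CPM to 16.9 and 16.1 CPM in the emu and from 88.9, 95.2 and 80.9 CPM to 164, 199 and 82.4 CPM in the chick. Its species difference was 3.74 (SE 0.39, adjusted p = 2.13e-04). NEFM, a neurofilament subunit, had a species difference of 4.72, or 3.79 without chick splanchnopleure 61. It changed by -3.13 in the emu and by 1.60 in the chick, the latter not called. EYA4, a transcription cofactor, had 3.75, or 3.01 without emu splanchnopleure 6 (adjusted p = 0.0780).

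Of the genes lower in the chick, GSDMA, MAF, CHST15, DEPDC6, PLCL1 and PLCB2 rose in the emu and were not called in the chick. GSDMA, of the pore-forming gasdermin family, measured 13.2, 11 and 8.39 CPM and 8.30, 9.50 and 8.83 CPM in chick lateral plate and splanchnopleure. In the emu it went from 0.229, 0.372 and 0.370 CPM to 10.3 and 34.2 CPM, and the species difference was -6.34 (SE 0.77, adjusted p = 5.50e-04). MAF, a leucine zipper factor, went from 0.458, 0.372 and 1.60 CPM to 40.1 and 13.7 CPM in the emu, while its chick libraries overlapped (19, 13.6 and 12.4 CPM against 16.1, 14.1 and 19 CPM). Its species difference was -4.91, or -3.93 without emu splanchnopleure 6 and still called. DEPDC6, named DEPTOR in RefSeq and an inhibitor of mTOR, rose in the emu by 2.81, from 13.9, 23.8 and 19.4 CPM to 172 and 94.4 CPM. Its chick change of -1.70, though not called, adds to its species difference of -4.51.

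PLCL1, a phospholipase-like protein without enzyme activity, had a species difference of -4.41, or -3.34 without emu splanchnopleure 6 (adjusted p = 0.0421). For CHST15, a chondroitin sulfate sulfotransferase, and PLCB2, a phospholipase C, the values were -4.52 and -4.22. They became -2.51 and -3.23 without that library (adjusted p = 0.0592 and 0.0716). AQP1, the water channel, rose in both species, by 2.12 in the chick and 6.86 in the emu. Its species difference of -4.74 was -3.49 without emu splanchnopleure 6 (adjusted p = 0.0883).

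Of the 11 splanchnic mesoderm regulators, 1 was called in the species difference (9.09%, near the 9.49% of all genes). Their median difference was -0.19. Of 34 key genes of splanchnic mesoderm and its signals, 26 were tested, and 3 were called in the species difference: ISL1, CYP26A1 and SPRY2. HAND1, a bHLH factor of lateral and heart mesoderm, rose by 1.37 in the chick and by 1.75 in the emu, with a difference of -0.38 (SE 0.64).

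MAB21L1 and MAB21L2, related developmental genes, rose by 7.24 and 5.37 in the chick and by 4.73 and 3.36 in the emu. The differences of 2.51 and 2.01 had standard errors of 1.57 and 1.45 and were not called. That of MAB21L2 was 0.40 without chick splanchnopleure 64 and 3.05 without chick lateral plate 31, and that of MAB21L1 was 1.71 without chick splanchnopleure 64. TCF21, a bHLH factor of visceral mesoderm, rose from 4.03, 11 and 4.59 CPM to 92.2, 65.2 and 66.1 CPM in the chick and from 6.53, 11.3 and 13.6 CPM to 30.9 and 28.9 CPM in the emu. Its difference of 1.98 (SE 0.70, adjusted p = 0.0863) was not called, but passed with DESeq2 (adjusted p = 0.0411), in the fit of the 11 libraries alone (0.0289) and without chick lateral plate 31 (0.0436). GATA4, a zinc finger factor of heart and gut mesoderm, rose in the emu by 2.86 and changed by 1.31 in the chick, which was not called. Its difference of -1.55 was not called, but was -3.09 without emu lateral plate 23 (adjusted p = 0.0451) and -0.92 without the pool. GATA5, GATA6 and OSR2 differed by 0.05, -0.68 and -0.19, with standard errors of 0.40, 0.74 and 0.67. GATA5 and OSR2 differed by 0.77 and 0.40 without the pool, and GATA6 by -1.36 without emu lateral plate 23. For TBX20 the standard error was 1.75 and chick lateral plate held 11 counts of it in all, and differences of several fold were not detectable. Its difference of -1.43 depended on single libraries. It was 3.68 without chick lateral plate 31 and -3.24 without chick splanchnopleure 64, none of them called. NKX2-5 and BARX1 had too few counts to be tested.

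**Figure D3:**
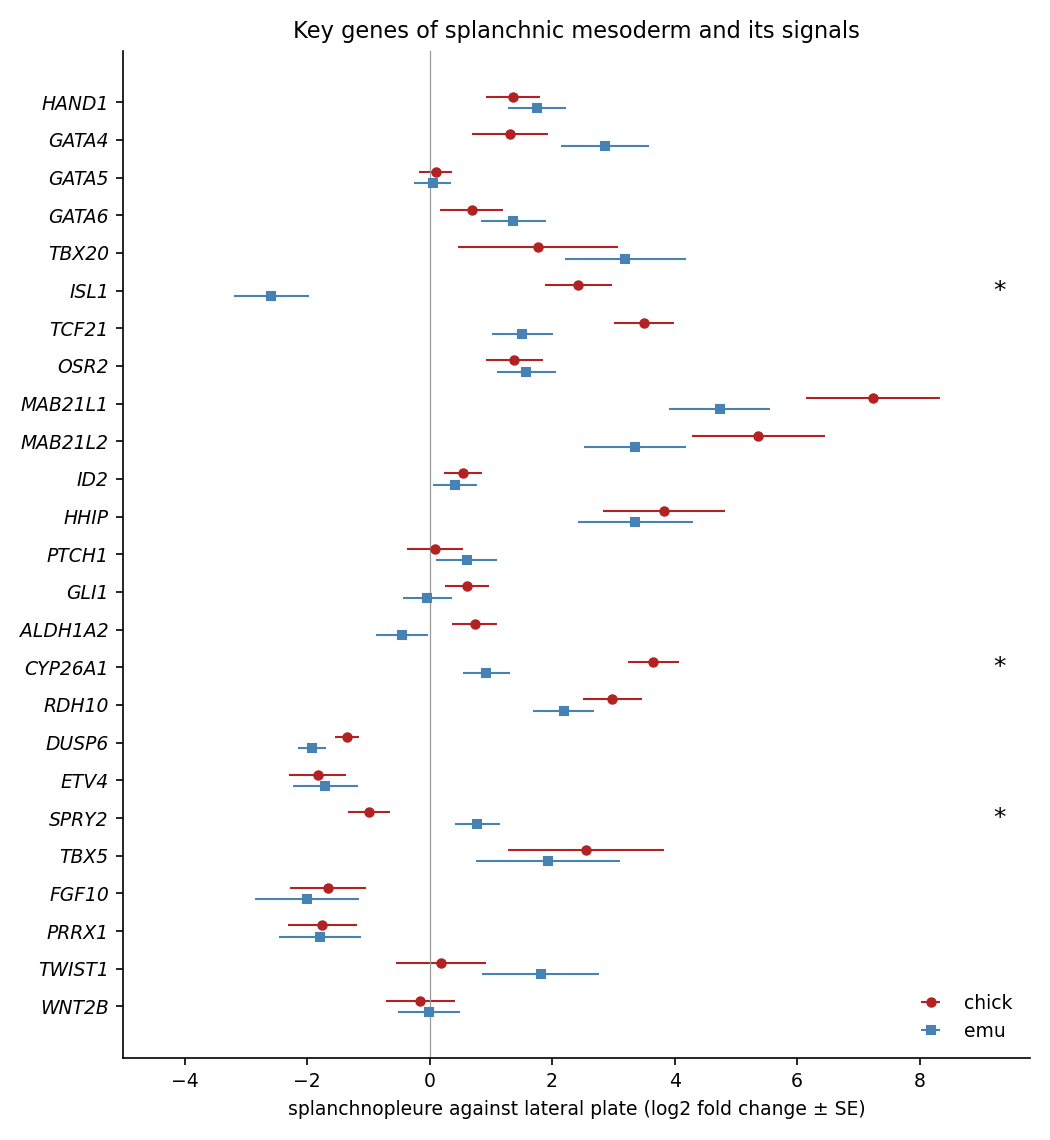
Log2 fold change from lateral plate to splanchnopleure, with its standard error, of 25 of the 26 tested key genes in the chick and in the emu. ISL1 points in opposite directions in the 2 species, CYP26A1 and SPRY2 also differ (asterisks mark genes called in the species difference), and the other genes drawn were not called in the species difference.

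None of 15 tested Hedgehog pathway members was called in the species difference, against 9.49% of all genes, and their median difference was 0.01. With 15 members that count says little about the pathway as a whole. HHIP, a Hedgehog-binding inhibitor and transcriptional target of the pathway, rose from 3.30, 4.69 and 0.999 CPM to 52.8, 38.3 and 42.7 CPM in the chick and from 1.83, 15.1 and 18.2 CPM to 98.5 and 142 CPM in the emu. Its changes of 3.83 and 3.36 differed by 0.47 (SE 1.34). PTCH1, the Hedgehog receptor, and GLI1, a target and effector, differed by -0.51 and 0.65 (SE 0.68 and 0.54).

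Of 13 retinoic acid genes, 1 was higher and 1 lower in the chick (15.4% called, against 9.49% of all genes). The lower one is CRABP1. The higher one is CYP26A1, the enzyme that degrades retinoic acid, which went from 2.69, 3.96 and 2.40 CPM to 27.3, 40.9 and 46.7 CPM in the chick and from 22.9, 25.7 and 19 CPM to 26.2 and 59.5 CPM in the emu. Both emu splanchnopleure libraries lay above the emu lateral plate, library 6 only just. The species difference was 2.72 (SE 0.57, adjusted p = 0.00979), and 2.26 without emu splanchnopleure 6 (adjusted p = 0.0593). RDH10, which makes the precursor of retinoic acid, rose in both species, by 2.99 and 2.19, with a difference of 0.80 (SE 0.68) that was 0.21 without emu splanchnopleure 6 and 1.84 without the pool. ALDH1A2, which makes retinoic acid itself, stood at 63.6 and 310 CPM in emu splanchnopleure 6 and the pool, below and above its lateral plate range of 261, 276 and 226 CPM. Its difference of 1.18 was not called (adjusted p = 0.200), but was 2.73 without the pool (adjusted p = 0.00165).

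BMP7, a BMP ligand, fell in the emu from 41.5, 40.2 and 38 CPM to 6.88 and 6.47 CPM, a change of -2.58. In the chick it went from 54.3, 45.8 and 51.9 CPM to 34, 42.9 and 29.1 CPM, without overlap, and the change of -0.52 was not called. The species difference was 2.05 (SE 0.38, adjusted p = 0.00554). Of 22 tested BMP genes 3 were higher and 1 lower in the chick (18.2% called, against 9.49% of all genes), with a median difference of -0.44. Besides BMP7 these were the signal transducer SMAD1 (0.73), the BMP-induced ID3 (1.06) and the receptor ACVR1 (-0.56). None of these last 3 was called without emu splanchnopleure 6 (adjusted p = 0.204, 0.211 and 0.193), and each depended on other libraries as well. SMAD1 kept its call without emu lateral plate 23 or the pool, ID3 without chick splanchnopleure 64, emu lateral plate 1 or the pool, and neither did without any of the others. ACVR1 also lost it without chick lateral plate 30 or 32, chick splanchnopleure 61 or 64, or emu lateral plate 1.

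WNT genes were called in both directions, 3 higher and 4 lower in the chick among 36 tested, with a median difference of -0.19. The called share was 19.4%, against 9.49% of all genes. Among these, WNT10A (4.39), LGR4 (-0.81) and NOTUM (-1.53) lie outside the rule for named genes. Each lost its call without any 1 of several libraries: 9 for WNT10A, 8 for LGR4 and 8 for NOTUM. WNT10A differed by 1.73 without chick splanchnopleure 61. RSPO1, a secreted amplifier of WNT signals, rose from 0.733, 1.47 and 0.599 CPM to 22.9, 13.3 and 27.1 CPM in the chick and from 2.18, 4.10 and 4.31 CPM to 12.7 and 11.2 CPM in the emu. Its species difference was 2.70 (SE 0.54, adjusted p = 0.00800). Its relative RSPO3 rose in the emu, from 2.98, 7.69 and 5.92 CPM to 42.3 and 51.1 CPM. It was not called in the chick, where lateral plate 30 was the high library (141, 29 and 38.2 CPM against 90.1, 64.8 and 74.5 CPM). The difference of RSPO3 was -2.95 (SE 0.71, adjusted p = 0.0190), -1.89 without chick lateral plate 30 and not called without emu splanchnopleure 6 or emu lateral plate 1 (adjusted p = 0.0584 and 0.0524). SFRP1, a secreted WNT antagonist, rose in the chick by 2.83, with a difference of 1.96 that was lost without emu splanchnopleure 6 (adjusted p = 0.0897), the pool (0.0610) or chick lateral plate 30 or 32 (0.0561 and 0.0556). FZD7, a WNT receptor, differed by -1.09 and lost its call without any 1 of 8 libraries (highest adjusted p = 0.127, without the pool), all but chick lateral plate 31, chick splanchnopleure 50 and emu lateral plate 23.

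FGF and ERK response genes fell in both species: 8 of 13 fell in the chick and 7 of 13 in the emu, against 6.07% and 12.7% of all genes, and none rose. DUSP6, the ERK phosphatase, fell from 122, 119 and 128 CPM to 43.5, 55.5 and 46.7 CPM and from 156, 119 and 144 CPM to 30.4 and 43.4 CPM. The changes of -1.34 and -1.92 differed by 0.58 (SE 0.29, adjusted p = 0.233). The feedback inhibitor SPRY2 and the ETS factor ETV1 were called in the species difference, at -1.77 and 1.65. SPRY2 lost its call without any 1 of 8 libraries (highest adjusted p = 0.111, without chick lateral plate 30), all but chick lateral plate 31 and 32 and emu lateral plate 1. ETV1 lost its call without any chick lateral plate library, chick splanchnopleure 64, emu lateral plate 1 or emu splanchnopleure 6 (highest adjusted p = 0.157, without the last). Of 15 Notch genes 2 were lower in the chick (13.3%, against 5.18% of all genes). DLL1, a Notch ligand, is also among the posterior growth zone genes given below. It fell in the chick from 141, 12.6 and 56.5 CPM to 3.02, 1.38 and 2.75 CPM. HES1, a Notch target, rose in the emu by 1.40. Their differences were -4.04 and -1.54, and both were lost without emu splanchnopleure 6 (adjusted p = 0.106 and 0.0543).

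Extracellular matrix genes rose more in the emu. Of 39 tested matrix genes 14 were lower in the chick and none higher (35.9% of them called, against 9.49% of all genes), with a median difference of -0.86. In the emu 27 of the 39 rose and none fell, and in the chick 16 rose and 3 fell. Of all genes 15.9% rose and 12.7% fell in the emu, and 8.38% and 6.07% did in the chick. COL1A2, a chain of collagen I, went from 333, 398 and 282 CPM to 755, 562 and 1030 CPM in the chick. In the emu it went from 83.6, 263 and 249 CPM to 6802 and 3894 CPM. Both species rose without overlap, by 1.21 and 4.75, and the difference was -3.54 (SE 0.48, adjusted p = 9.74e-04).

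DCN, the small proteoglycan decorin, rose from 43.6, 65.4 and 63.7 CPM to 418, 406 and 544 CPM in the chick and from 2.75, 8.19 and 10.5 CPM to 590 and 442 CPM in the emu. Its difference was -3.19 (SE 0.66, adjusted p = 0.00890). COL5A2, a chain of the fibril-forming collagen V, rose in the emu by 2.37 and differed by -1.95. COL3A1, the collagen III chain, rose in the emu from 2.06, 35.4 and 63.5 CPM to 9086 and 2906 CPM and in the chick from 135, 435 and 141 CPM to 1307, 1358 and 2999 CPM. TNC, the matrix glycoprotein tenascin C, rose in the emu from 59.1, 83.8 and 156 CPM to 2942 and 1562 CPM and in the chick from 5.86, 15.1 and 9.19 CPM to 40.3, 40.9 and 36.5 CPM. The differences of COL3A1 and TNC were -4.49 and -2.53, and became -3.44 and -1.99 without emu splanchnopleure 6 (adjusted p = 0.0998 and 0.0732).

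Summed over the matrix genes, chick lateral plate held 12070 to 12869 CPM and chick splanchnopleure 14694 to 22338 CPM. Emu lateral plate held 16872 to 19752 CPM, emu splanchnopleure 6 held 72922 CPM and the pool 41190 CPM. Both emu splanchnopleure libraries lay above all emu lateral plate libraries, and library 6 was the higher. Without it 3 matrix genes were called lower in the chick, and without emu lateral plate 1, 10 were. In bulk RNA, fewer cells of a type and less RNA per cell cannot be told apart, here and below.

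**Figure D4:**
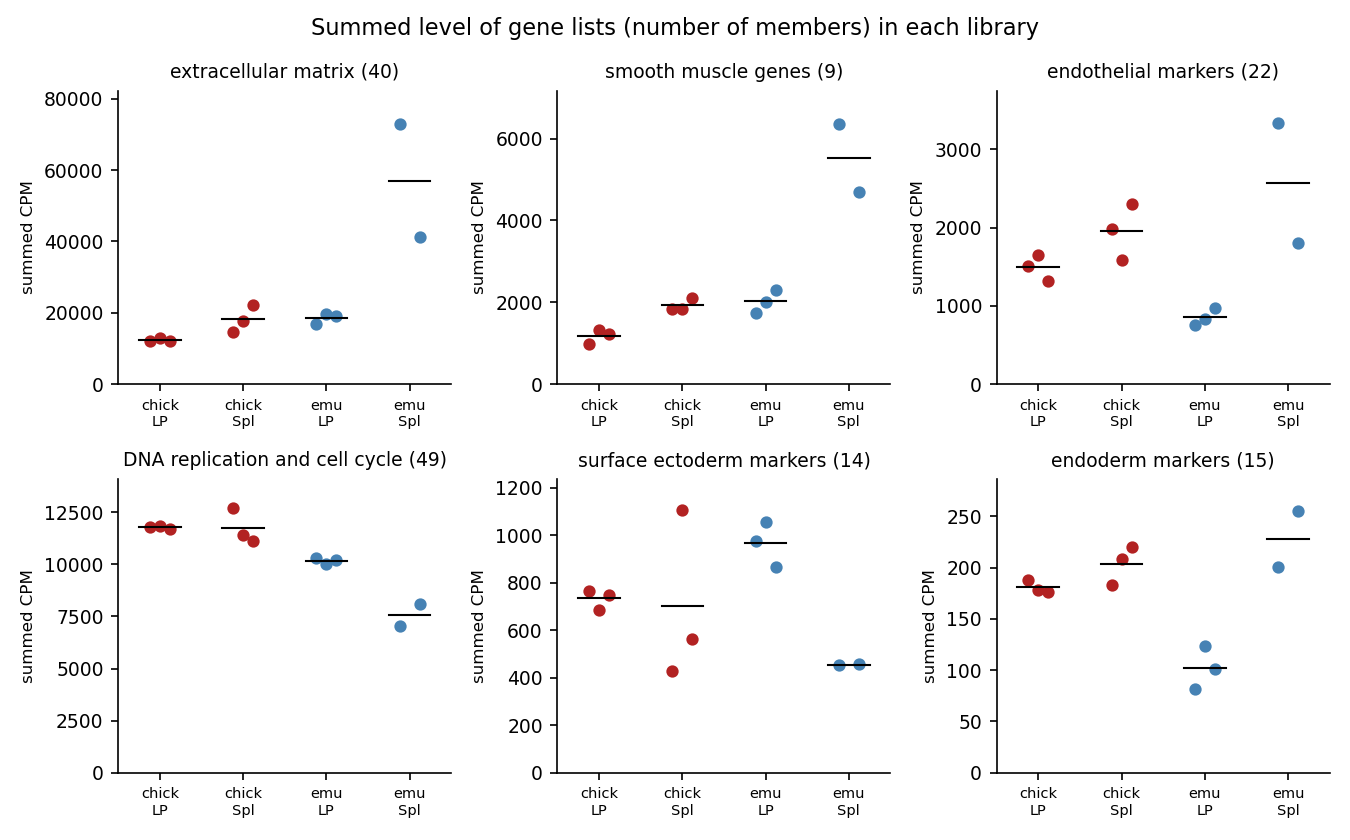
Summed level of the members of several gene lists (number of members in the title) in each of the 11 libraries, in CPM, by species and tissue (LP, lateral plate; Spl, splanchnopleure). The extracellular matrix sum is highest in the 2 emu splanchnopleure libraries, 72922 in library 6 and 41190 in the pool.

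Endothelial markers moved in the same direction as the matrix genes. Of 22 tested, 19 rose in the emu and 2 in the chick, where 15.9% and 8.38% of all genes rose, and none fell. In the species difference 7 were lower in the chick and none higher, with a median of -1.14. The called share was 31.8%, against 5.18% of all genes called lower. FLT4, a VEGF receptor of veins and lymphatic vessels, had 99.8, 110 and 91.7 CPM and 131, 121 and 166 CPM in the chick tissues and 54.4, 61.3 and 56.2 CPM and 191 and 152 CPM in the emu tissues. Its chick change of 0.47 was not called, its emu change was 1.58, and the difference was -1.11 (SE 0.26, adjusted p = 0.0159). The VEGF receptors FLT1 and KDR differed by -1.36 and -1.38, and FLI1, an ETS factor of endothelium, by -2.04. KDR lost its call without any 1 of 9 libraries, all but chick splanchnopleure 64 and the pool, and FLT1 without emu lateral plate 1 or emu splanchnopleure 6. The summed endothelial level was 1316 to 1654 CPM in chick lateral plate and 1585 to 2302 CPM in chick splanchnopleure. In the emu it was 762 to 969 CPM in the lateral plate, 3332 CPM in splanchnopleure 6 and 1806 CPM in the pool. Without emu splanchnopleure 6 none of the 22 was called, and without emu lateral plate 1, 3 were, while without the pool 13 were. The part of vessel cells in the matrix result was not tested.

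Heart muscle genes were split. Of 11 tested, 1 was higher in the chick and 5 lower, with a median difference of -2.19, against 4.31% and 5.18% of all genes. MYOM1 is the higher one. Besides TNNT2 and HCN4, the lower ones were the myosin heavy chains MYH7B and MYH15 and the calcium release channel RYR2; MYH15 (-2.19) and RYR2 (-3.44) are named because the count is small, after their values were seen. RYR2 was not called without emu splanchnopleure 6 (adjusted p = 0.0874). MYH15 was not called without any 1 of 8 libraries, all but chick lateral plate 32, chick splanchnopleure 64 and emu lateral plate 23 (highest adjusted p = 0.126, without emu splanchnopleure 6). MYH7B fell in the chick from 2.69, 2.93 and 3.0 CPM to 1.21, 0.766 and 0.477 CPM, while the emu had 3.55, 3.97 and 3.82 CPM and 6.35 and 5.68 CPM, a change that was not called. Its difference was -2.48 (SE 0.51, adjusted p = 0.00837). In the emu 6 of the 11 rose and none fell, and in the chick 2 rose and 3 fell. Of all genes 15.9% rose and 12.7% fell in the emu, and 8.38% and 6.07% did in the chick. The level summed over 20 members, untested ones and MYOM1 included, overlapped between tissues in the emu. It was 215.7 to 252.3 CPM in the lateral plate and 217.4 to 230.9 CPM in the splanchnopleure. A sum follows its most abundant members and does not show how most of the genes changed. Without emu splanchnopleure 6, 1 was higher and 3 were lower in the chick.

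Of 9 smooth muscle genes 7 rose in the emu and 5 in the chick, where 15.9% and 8.38% of all genes rose. In the species difference 3 were lower in the chick (5.18% of all genes were). MYH11, the smooth muscle myosin heavy chain, rose in the emu from 3.67, 19.1 and 20.2 CPM to 90.7 and 59.4 CPM and measured 20.1, 9.09 and 14 CPM and 10.7, 14.4 and 13.1 CPM in the chick tissues. It differed by -2.57, the actin regulator CALD1 by -1.11 and the tropomyosin TPM1 by -1.04. None of the 3 was called without emu splanchnopleure 6 (adjusted p = 0.159, 0.321 and 0.198), and each depended on other libraries as well. MYH11 also lost its call without chick lateral plate 30 or 32 or any chick splanchnopleure library. CALD1 lost it without all but chick splanchnopleure 64, emu lateral plate 8 and the pool, and TPM1 without chick lateral plate 31 or 32, chick splanchnopleure 50 or emu lateral plate 1.

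Genes of DNA replication and the cell cycle were called mostly in the other direction. None of 49 changed in the chick, while in the emu 24 fell and 1 rose, where 12.7% and 15.9% of all genes fell and rose. In the species difference 9 were higher in the chick and 1 lower, against 4.31% and 5.18% of all genes, with a median of 0.42. RFC2, a subunit of the clamp loader, had 70.9, 94.3 and 73.9 CPM and 101, 110 and 93.1 CPM in the chick tissues, and went from 205, 165 and 170 CPM to 93.5 and 119 CPM in the emu. Its emu change was -0.76 and its species difference 1.11 (SE 0.19, adjusted p = 0.00431). POLA1, the catalytic subunit of DNA polymerase alpha, RFC4, another clamp loader subunit, and the cyclin gene CCND1 differed by 0.83, 1.04 and 1.71. Those 3 were not called without emu splanchnopleure 6 (adjusted p = 0.0644, 0.0875 and 0.120), and 1 of the 49 genes was. The summed level was 9997 to 10304 CPM in emu lateral plate and 7021 to 8074 CPM in emu splanchnopleure.

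Markers of cells that a dissection of this layer could also hold were measured beside these genes. Their part in the results was not tested. The median species difference was 1.14 for surface ectoderm, 2.23 for neural and crest, -1.28 for endoderm, -1.32 for somite and 0.58 for nephric markers. Over all genes tested that median was 0.02. Of all genes 15.9% rose and 12.7% fell in the emu, and 8.38% and 6.07% did in the chick. In the species difference 9.49% of all genes were called. Surface ectoderm markers summed to 866 to 1055 CPM in emu lateral plate and 452 to 456 CPM in emu splanchnopleure, and 8 of 14 fell there. In the chick they summed to 686 to 766 CPM in the lateral plate and 430 to 1108 CPM in the splanchnopleure, where library 61 was the high one and 1 of 14 fell. In the species difference 1 was called, CLDN1, a tight junction protein, at 1.59 (adjusted p = 0.0242), with losses without chick lateral plate 31 (0.0513), emu splanchnopleure 6 (0.104) or the pool (0.0559). Neural and crest markers summed to 326 to 600 CPM in chick lateral plate and 790 to 1104 CPM in chick splanchnopleure, without overlap. In the emu they summed to 833 to 1054 CPM in the lateral plate and 807 to 819 CPM in the splanchnopleure. Of 9 tested, 6 fell and 1 rose in the emu, and 1 fell and 1 rose in the chick. NEFM was called higher in the chick and ELAVL4, a neuronal RNA-binding protein, lower (-1.80), the latter lost without emu splanchnopleure 6 (adjusted p = 0.168) or emu lateral plate 1 (0.0524). Endoderm markers summed to 81.7 to 123.5 CPM in emu lateral plate and 200.5 to 255.7 CPM in emu splanchnopleure. In the chick they summed to 176.4 to 187.9 CPM and 183.4 to 220.1 CPM. Of the 10 tested, 5 rose in the emu and 1 in the chick, and none was called in the species difference. In the chick 1 of the 10 fell, and none fell in the emu. The endoderm factor NKX2-1 had no count in the splanchnopleure of either species. It had too few counts to be tested, with 17 and 2 in chick and emu lateral plate, so this says little about endoderm. Somite markers fell in the chick in 3 of 4 genes and rose in 1, and in the emu 1 fell and 1 rose. They summed to 49.28 to 102.7 CPM in chick lateral plate and 21.72 to 31.27 CPM in chick splanchnopleure, without overlap. In the emu they summed to 10.55 to 16.62 CPM and 15.97 to 21.95 CPM, where the ranges overlapped. MEOX1, a somite homeodomain factor, differed by -2.50 (adjusted p = 0.0147, or 0.0801 without emu splanchnopleure 6). None of 7 nephric markers, 3 red blood cell genes, 4 left-right genes and 5 Hox genes was called in the species difference. These were the tested ones of 12, 22, 10 and 34 listed, too few for the counts to say much. Of 9 posterior growth zone genes 1 was higher and 1 lower in the chick (CYP26A1 and DLL1). In the chick 5 of the 9 fell and 1 rose, and in the emu 1 fell and none rose. They summed to 279.8 to 788.1 CPM in chick lateral plate, highest in library 30, and 172.8 to 224.9 CPM in chick splanchnopleure. In the emu they summed to 130.8 to 230.3 CPM and 167.5 to 186.5 CPM, where the ranges overlapped. Of 13 lipid transport and plasma protein genes 1 was lower, the fatty acid carrier FABP7 (-2.38, lost without emu splanchnopleure 6 with an adjusted p of 0.145, and without chick lateral plate 30, chick splanchnopleure 50 or emu lateral plate 1).

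None of 57 cytosolic ribosomal protein genes and none of 49 oxidative phosphorylation genes was called in the species difference, against 9.49% of all genes. Their medians were 0.16 and 0.04. Between the layers, in the comparison with somatopleure given below, 9 of the 57 ribosomal protein genes were called higher in the chick and none lower, against 2.58% and 2.56% of all genes. Of 26 glycolysis and hypoxia genes 1 was higher and 2 were lower in the chick (11.5% called, against 9.49% of all genes). ALDOC, a glycolytic aldolase, fell in the chick by 0.29 and rose in the emu by 0.40, with a difference of -0.68 (SE 0.14, adjusted p = 0.00826). HK2, a hexokinase, fell in both, by 0.60 in the chick and 1.65 in the emu, and its difference of 1.05 was not called without emu splanchnopleure 6 (adjusted p = 0.0593). HSPB8, a small heat shock protein, fell in the chick from 13.4, 10.9 and 13 CPM to 5.58, 8.28 and 6.68 CPM and rose in the emu from 5.04, 6.58 and 8.01 CPM to 15.1 and 16.1 CPM. Its difference was -2.11 (SE 0.34, adjusted p = 0.00255), and of 25 heat shock and stress genes HMOX1, the heme oxygenase, was the other called lower in the chick (-1.80, not called without emu splanchnopleure 6, adjusted p = 0.103, or without any other library but chick splanchnopleure 50 and emu lateral plate 8). P4HA1, a collagen prolyl hydroxylase, was the second glycolysis and hypoxia gene lower in the chick, at -0.69, and lost its call without emu splanchnopleure 6 (adjusted p = 0.103) or emu lateral plate 1 (0.0512).

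Of 27 cadherin and epithelial junction genes 2 were higher and 1 lower in the chick (11.1% called, against 9.49% of all genes). TJP3, a tight junction scaffold, rose in the chick from 7.81, 8.95 and 10.6 CPM to 14.8, 18.9 and 27.6 CPM and was not called in the emu. CDH6, a cadherin of mesenchyme and nephric tissue, rose in both species, from 25.8, 35.9 and 30.2 CPM to 112, 97.8 and 197 CPM in the chick and from 0.115, 1.99 and 6.66 CPM to 288 and 99.8 CPM in the emu. Their differences of 1.59 and -3.92 were 1.52 and -2.95 without emu splanchnopleure 6 (adjusted p = 0.0543 and 0.0883). Of 10 FGF ligands and receptors 1 was lower in the chick, the decoy receptor FGFRL1, at -1.49, which lost its call without any 1 of the libraries but emu lateral plate 23 (highest adjusted p = 0.167, without emu splanchnopleure 6).

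**Figure D5:**
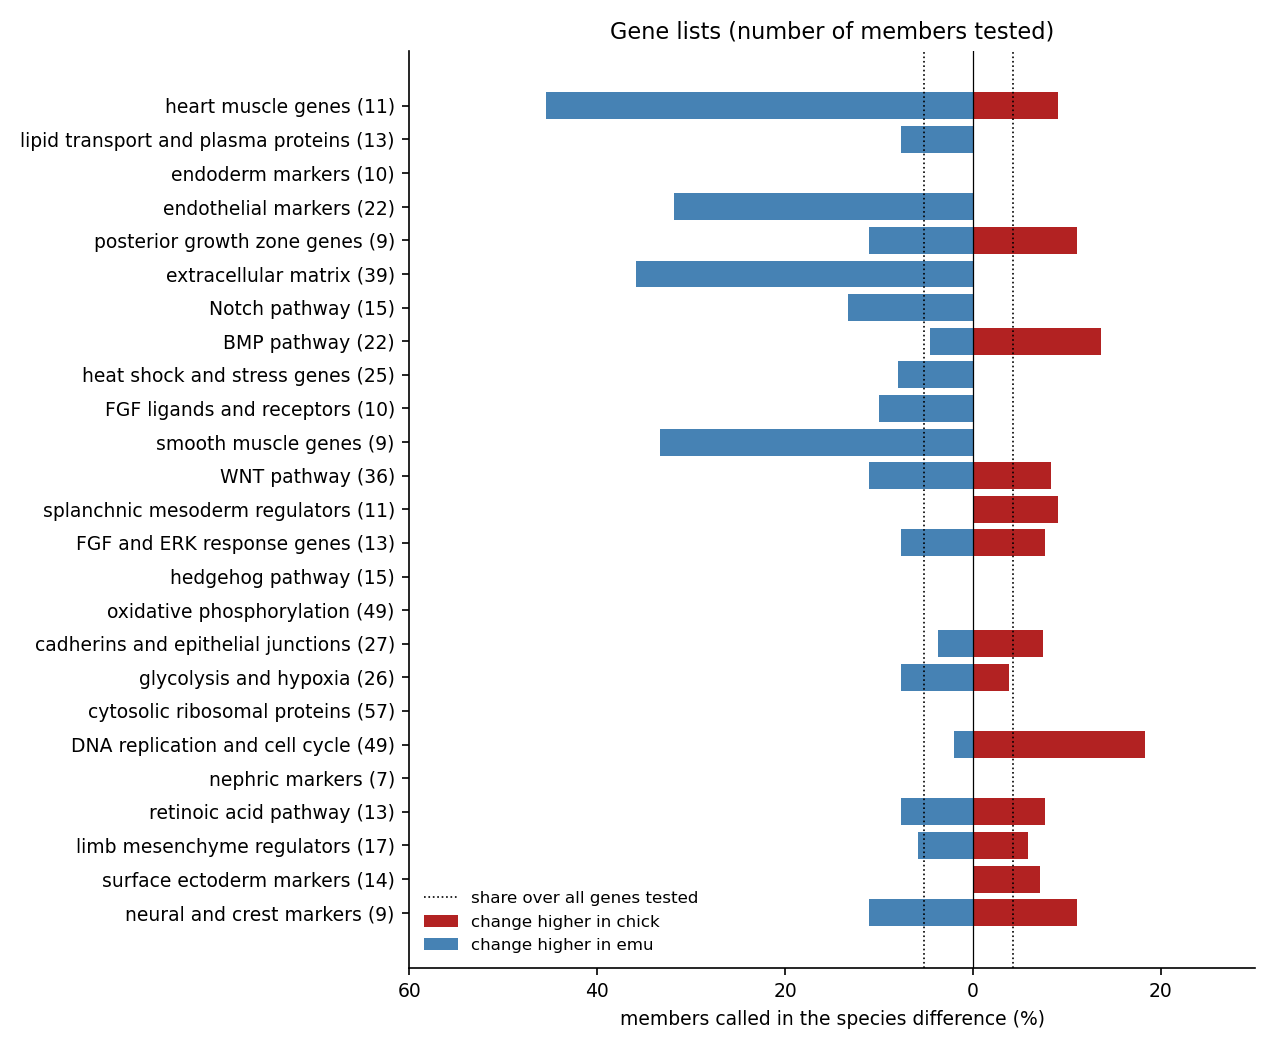
Share of the tested members of each gene list with at least 7 tested members that was called in the species difference, to the right where the change was higher in the chick and to the left where it was lower (number of members tested in parentheses). Dotted lines mark the shares over all genes tested, 4.31% to the right and 5.18% to the left. Heart muscle, extracellular matrix, smooth muscle and endothelial lists reach farthest to the left, and DNA replication and cell cycle genes lie mostly on the right.

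Limb mesenchyme regulators, which the somatopleure is known to express, fell in 5 of 17 genes in each species. Over all genes 6.07% fell in the chick and 12.7% in the emu. In the species difference 1 of the 17 was called each way (11.8% called, against 9.49% of all genes). PRRX1, a homeodomain factor of limb mesenchyme, went from 143, 254 and 268 CPM to 102, 18.4 and 77.2 CPM in the chick and from 80.0, 110 and 100 CPM to 6.35 and 49.5 CPM in the emu. Its changes of -1.75 and -1.79 differed by 0.04 (SE 0.83). The 2 emu splanchnopleure libraries were far apart, and the difference was -0.77 without library 6 and 2.18 without the pool, not called in either. TBX5 and FGF10, which start the forelimb bud, differed by 0.63 and 0.34 (SE 1.78 and 1.02). Their signs depended on single libraries: TBX5 differed by 3.42 without the pool and -0.57 without emu lateral plate 23, and FGF10 by 1.99 without emu splanchnopleure 6 and -0.99 without emu lateral plate 1, none of them called. PITX1, a homeodomain factor of the hindlimb, was called. It measured 14.8, 10.7 and 12 CPM and 23.1, 24.2 and 19.9 CPM in chick lateral plate and splanchnopleure, and 42.4, 17.4 and 49.9 CPM and 18.8 and 12.5 CPM in the emu tissues, where the ranges overlapped. The species difference was 2.06 (SE 0.46, adjusted p = 0.0138). SNAI2, a zinc finger factor of mesenchymal cells, fell in the chick from 94.3, 73.2 and 79.3 CPM to 29.1, 32.5 and 31.9 CPM and was not called in the emu (174, 246 and 248 CPM and 328 and 208 CPM). Its difference of -1.67 was -1.30 without emu splanchnopleure 6 (adjusted p = 0.0629).

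Whether a species difference belongs to the splanchnopleure rather than to both layers was tested as the species difference of splanchnopleure against somatopleure, which leaves the lateral plate out. It was called in 500 of the 9736 genes (5.14%), 251 higher and 249 lower in the chick. Of the 924 genes called in the species difference above, 232 were among these 500, 231 of them with the same sign. Without emu somatopleure 13, whose stage label differs, the test between the layers called 402 genes. This test shares the splanchnopleure libraries with the species difference above. The other comparison, the species difference of somatopleure against lateral plate (273 genes called, 2.80%), shares the lateral plate libraries with it, so values are given side by side. CRTAC1, ISL1, COL22A1 and ANXA1 differed between the layers by 5.62, 6.66, 4.56 and 5.61 (adjusted p = 9.57e-04, 0.00332, 9.57e-04 and 1.45e-04). Against the lateral plate their species differences were 5.89, 5.01, 3.38 and 3.43. The value between the layers is that difference less the one of the somatopleure. For ISL1, COL22A1 and ANXA1 it is the larger, so their somatopleure estimate had the opposite sign and adds to it. CRABP1, COL1A2 and DCN differed by -4.47, -3.50 and -2.41 (adjusted p = 9.08e-04, 9.57e-04 and 0.0364).

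Other genes differed from the lateral plate in both layers. CHRNA4, NEFM, TNNT2 and C3H20orf103 were called in the somatopleure comparison with the same sign, at 5.10, 3.80, -4.57 and -4.78 (adjusted p = 0.0150, 0.0285, 0.0323 and 0.0135). For those 4 the difference between the layers was 1.73, 0.92, -1.58 and -0.09 and was not called. TP73 and SEMA3D were called in all 3 comparisons, at 1.76 and 1.40 in the somatopleure and 3.63 and 2.33 between the layers. Of the 39 matrix genes 9 were lower in the chick between the layers and none was higher, against 2.56% and 2.58% of all genes. Of 11 heart muscle genes 1 was higher and 1 lower in this test, and of 9 smooth muscle genes 1 was lower and none higher. None of 49 DNA replication and cell cycle genes was called between the layers, against 5.14% of all genes. For these 3 lists the counts do not show that the species difference belongs to the splanchnopleure alone. None of the 22 endothelial markers was called there, against 5.14% of all genes. With 22 members that count says little about whether their difference belongs to 1 layer or to both. Without emu splanchnopleure 6 the test between the layers called 206 genes.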

How the data were processed

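Bulk RNA libraries of chick and emu lateral plate mesoderm and splanchnopleure were analysed, and the 6 somatopleure libraries of both species entered the same fit to share an estimate of the spread. Per the labels' protocols, RNA of the early tissue was isolated on PicoPure columns and libraries were amplified from total RNA. The deposited values are raw read counts per gene symbol, not normalized. Per the submitters' processing notes, STAR, featureCounts, DESeq and assembly galGal4 were used, with no versions. The genome behind the emu counts and the use of strand in counting are not given in the sources used here. Counts of overlapping, antisense and near-identical genes are therefore uncertain. Symbols are those of the files: of the 9736 tested, 8181 are current and 292 older symbols in RefSeq's table for GRCg7b, and 725 are LOC identifiers.

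Counts were fitted with edgeR 4.0.16 (limma 3.58.1, R 4.3.3), with 1 mean per species and tissue, TMM factors within each species, genes that passed filterByExpr (minimum count 10, minimum total 15) in both species, a quasi-likelihood F test (two-sided) and Benjamini-Hochberg adjustment over all genes tested. Adjusted p-values are from edgeR except where another tool stands beside them, and standard errors were derived from the fold change and its F value. The contrast was the chick change minus the emu change. CPM are counts over TMM-scaled library sizes. The biological coefficient of variation was 0.165 in chick and 0.209 in emu. The fit was also run on simulated counts, which gave all genes and libraries the same spread. That run therefore cannot show how the fit handles a library that stands apart.

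Named genes are the 12 largest species differences per direction among called genes that have a symbol other than a LOC identifier, an average log2 CPM of 1 or more in each species, at least 4 counts per group and no overlap between chick and emu splanchnopleure libraries relative to their own lateral plate; up to 5 per direction called in both species with opposite signs; 34 key genes; and up to 4 called members of each of 29 gene lists (828 genes, 520 tested). The comparison, lists and key genes were chosen with earlier results of these data known. Alternatives were other size factors, filters, DESeq2 1.42.0, limma voom, fewer libraries and leaving out each library; emu lateral plate 1 and emu somatopleure 13, whose stage labels differ, were left out together as an alternative chosen after seeing the data. HH18 libraries were not used here, and 2 genes that the rule names are not reported here.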

Additional observations from a re-analysis of the deposited data

Results flagged for a closer look

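The change from lateral plate to splanchnopleure differed between chick and emu in 924 genes by the test of the difference itself. Another contrast of the same fit, of splanchnopleure against somatopleure, called a species difference in 500 of the 9736 genes (5.14%). Of the 924 genes (9.49% of those tested), 232 were among those 500. Both contrasts use the same splanchnopleure libraries, so an overlap was likely beforehand. At single genes called in both species with opposite signs, the log2 species differences were 6.83 for CHRNA4, 5.01 for ISL1, 3.68 for ALK and 3.59 for PPP1R14C, which rose in the chick and fell in the emu. They were -6.15 for TNNT2, -5.44 for HCN4, -5.37 for SLCO2B1, -4.87 for C3H20orf103 and -4.86 for SLC28A3, which fell in the chick and rose in the emu. Of these 9 genes, the call of SLCO2B1 was lost without emu splanchnopleure 6 (adjusted p = 0.104), and the other 8 were called in each fit that left out 1 of the 11 libraries. The groups hold 2 or 3 libraries, too few for a search for single outlying libraries.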

How the results depend on the processing

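No paired analysis was possible because the groups compared share no replicate numbers. The species difference was called in 862 to 939 genes with size factors over both species together, relative log expression or upper quartile factors, no filter or a minimum count of 30, in 747 with limma voom, in 1225 in the fit of the 11 libraries alone and in 1316 with DESeq2. With DESeq2 the difference between the layers was called in 831 genes. Among the named genes DESeq2 ended no call of the species difference and added 1, TCF21. With limma voom 13 named calls were lost and none was added. The lost ones were AQP1, CALD1, CDH6, CHST15, CLDN1, DLL1, ELAVL4, ETV1, FABP7, FZD7, NGEF, RSPO3 and SLCO2B1. Without both emu libraries whose stage label differs, an alternative chosen after seeing the data, the species difference was called in 581 genes. Leaving out each of the 11 libraries in turn gave 238 to 993 genes for the species difference, 586 to 1426 for the chick change, 1130 to 2736 for the emu change and 206 to 529 for the difference between the layers. The chick change was called in 601, 716 and 586 genes without lateral plate 30, lateral plate 32 and splanchnopleure 64. The lowest counts for the emu change and both species differences came without emu splanchnopleure 6, which leaves the pool as the lone library of its group, assumed to vary like the other groups. The cause of these shifts was not tested. None of the 924 called values changed sign in these alternatives, with 852 and 913 of them tested at a minimum count of 30 and in the fit of the 11 libraries alone. Those genes were chosen by the main fit and the alternatives reuse most of its libraries, so kept signs were likely beforehand. Of 72 called named genes, 31 were called in all 11 fits. Genes with few counts, such as TBX20, GATA4 and TBX5, have standard errors near or above 1 and limit what could be detected.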

Other observations

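Of the 197 genes called in each fit that left out 1 of the 11 libraries, several outside the rule for named genes are secreted or signal-related, and those given here were chosen after their values were seen. SULF2, an extracellular sulfatase that edits heparan sulfate, rose in the chick by 1.49 and fell in the emu by 1.16, a species difference of 2.66 (SE 0.41, adjusted p = 0.00216). SOX11, a factor of progenitor cells, and MDK, the heparin-binding growth factor midkine, fell in the emu by 1.76 and 0.86. Neither was called in the chick, and their species differences were 1.34 (SE 0.26, adjusted p = 0.00714) and 1.32 (SE 0.23, adjusted p = 0.00467).

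IGFBP7, a secreted binding protein of vessels and matrix, rose in both species, by 1.30 in the chick and 5.07 in the emu, a difference of -3.78 (SE 0.55, adjusted p = 0.0015). CYP24A1, the enzyme that degrades active vitamin D, and PTGER4, a prostaglandin E receptor, rose in the emu by 2.75 and 2.80 and were not called in the chick. Their differences were -3.78 (SE 0.69, adjusted p = 0.00507) and -3.43 (SE 0.67, adjusted p = 0.00714). TRPA1, a cation channel, fell in the chick by 3.0 and rose in the emu by 1.81, a difference of -4.81 (SE 0.69, adjusted p = 0.00133). CTGF, a matricellular growth factor, rose in the emu by 1.68 and was not called in the chick, with a difference of -1.23 (SE 0.28, adjusted p = 0.0136).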
